A study of Mus musculus with 12 samples.

Results

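The genes described here are 10 heat shock proteins and chaperones, Hspa1a, Hspa1b, Hspa1l, Hspa8, Hsph1, Hsp90aa1, Hsp90ab1, Dnajb1, Hspb1 and Cryab, among the 23337 genes listed. They were chosen by gene family, with a large rise of Hspa1b in adult knockout cells already known from earlier results. The values of these genes in the adult comparison, and in any test that contains it, are therefore given as a description without a test. Each of 4 groups had 3 samples, 12 in all, of RNA from cardiomyocytes (CMs, the muscle cells of the heart). The knockout (KO) mice were Srf-flox/flox and the controls (CTRL) were Srf-flox/+. Cre recombinase can thus remove both copies of Srf, the gene of serum response factor, in KO cells and only 1 copy in CTRL cells. Mice of both genotypes carried a Cre-inducible fluorescent reporter at Rosa (Cas9GFP, tdTomato or mTmG, on a mixed background). They also received the same virus, an adeno-associated vector (AAV9) with Cre under the cardiac troponin T promoter, at a low dose that recombines only a minority of CMs. Neonatal KO and CTRL mice were injected on postnatal day (P) 1 and their cells taken at P14, and adult ones were injected at P60 and their cells taken at P90. Cells were released by collagenase perfusion of the heart at body temperature and sorted by their fluorescence, a procedure that can itself switch on stress genes. By the study's staining of isolated CMs, some fluorescent KO cells still held the protein, and depletion of Srf RNA in sorted cells was incomplete.

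Heat shock proteins are chaperones, which bind unfolded proteins and help them fold. HSP70 proteins bind short exposed stretches of a client, J-domain proteins such as Dnajb1 bring clients to them and start their ATP cycle, HSP110 proteins such as Hsph1 exchange their nucleotide, and HSP90 proteins take over clients such as kinases and steroid receptors. Small heat shock proteins such as Hspb1 and Cryab hold unfolded proteins without ATP and are abundant in heart muscle. Heat, unfolded protein and other stress activate the factor Hsf1, which binds heat shock elements in promoters and strongly induces Hspa1a and Hspa1b, whereas Hspa8 and Hsp90ab1 are made at all times.

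Hspa1b, Hspa1a and Hspa1l lie side by side on chromosome 17 (mm10). Hspa1b spans 34956429 to 34959238 and Hspa1a spans 34969359 to 34972156, both on the minus strand and both with 1 exon. Hspa1l spans 34972703 to 34979228 on the plus strand, in 2 exons, and starts 546 bp from the start of Hspa1a in the opposite direction. The 250 bases before the start site of each gene are printed because the RNA of Hspa1a and Hspa1b moved differently from that of Hspa1l. They are from RefSeq (GRCm38.p6), read 5′ to 3′ on the strand of the gene, and capitals mark a heat shock motif (GAANNTTC or TTCNNGAA, where N is any base; each is its own reverse complement, so both strands are covered). The windows lie at chr17:34972157-34972406 for Hspa1a, at chr17:34959239-34959488 for Hspa1b and at chr17:34972453-34972702 for Hspa1l.
Hspa1a: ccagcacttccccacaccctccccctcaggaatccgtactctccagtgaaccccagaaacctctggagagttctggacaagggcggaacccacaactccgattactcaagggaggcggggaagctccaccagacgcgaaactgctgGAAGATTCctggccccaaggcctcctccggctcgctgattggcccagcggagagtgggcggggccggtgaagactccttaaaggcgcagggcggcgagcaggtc
Hspa1b: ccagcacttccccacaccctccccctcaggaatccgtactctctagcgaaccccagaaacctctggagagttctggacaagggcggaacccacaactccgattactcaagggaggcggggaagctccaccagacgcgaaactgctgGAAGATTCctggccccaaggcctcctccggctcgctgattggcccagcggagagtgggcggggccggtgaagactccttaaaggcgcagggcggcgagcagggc
Hspa1l: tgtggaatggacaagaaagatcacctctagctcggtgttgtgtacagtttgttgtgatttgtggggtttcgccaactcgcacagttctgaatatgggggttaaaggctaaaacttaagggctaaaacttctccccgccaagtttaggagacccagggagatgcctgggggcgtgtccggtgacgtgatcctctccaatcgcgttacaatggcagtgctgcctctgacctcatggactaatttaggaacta

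The Hspa1a and Hspa1b stretches were identical at 247 of 250 positions, and each held 1 heat shock motif that began 104 bases before the start site. No match was found in the Hspa1l stretch. The motif of Hspa1a lies outside that stretch but within the 546 bp between the starts of Hspa1a and Hspa1l, so the 2 genes share this region. In windows of 300 bases (250 before and 50 after the start), which were at hand for 6 of the 10 genes, the motif was present in 4 genes, namely Hspa1a, Hspa1b, Hspb1 (2 matches) and Hsph1 (3 matches, of which a pair overlapped). It was present in 15.1% of 32851 RefSeq promoter windows of that length. The CArG box, the sequence that serum response factor binds, was matched in 0 of the 6 genes and in 1.63% of all windows, with 2 matches in the window of Srf itself. These matches are letters in a window and not measured binding sites.

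Likeness between copies limits how reads can be assigned. In the GENCODE transcripts (release M21), 62.3% of the 50-base stretches of Hspa1b occurred unchanged in another gene, and all 1716 of them were found in Hspa1a. The share was 60.3% for Hspa1a, 74.8% for Hspa8, 58.5% for Hsp90aa1 and 51.6% for Hspb1, for which the gene sharing most was Hspa1b, Gm15459, Gm12346 and Hsp25-ps1 in turn. It was 9.57% for Hspa1l, 4.49% for Hsp90ab1, 0.441% for Dnajb1 and 0 for Hsph1 and Cryab, with genes at the same locus left out. How reads that match several places were counted is not given in the sources used here, so the split between Hspa1a and Hspa1b is uncertain and their sum is given as well.

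Total counts ran from 9740389 to 23103460 per sample, and levels are given as CPM, counts scaled to the depth of each library (with TMM factors over the 12 samples). The targeted gene was lower in each KO library than in any CTRL library of its stage. Srf was 64.0, 57.1 and 49.4 CPM in P14 CTRL and 32.1, 27.5 and 9.75 CPM in P14 KO, and 71.2, 59.1 and 81.1 CPM in P90 CTRL and 32.9, 28.9 and 28.1 CPM in P90 KO. In neonatal KO it differed by -1.30 ± 0.36 (SE) on the log2 scale (edgeR's quasi-likelihood test, Benjamini-Hochberg adjusted p = 0.0628, 3 against 3) and in adult KO by -1.23 ± 0.13 (adjusted p = 0.00347 by that test). The summed level of 7 CM markers ran from 86335 to 95279 CPM over the 6 CTRL libraries, from 62538 to 67085 CPM over the P14 KO libraries and from 78904 to 81667 CPM over those of P90 KO. Much of this sum was Myh6, which the study describes as a direct target of Srf. Its mean was 55725 CPM in P14 CTRL, 35516 CPM in P14 KO, 55354 CPM in P90 CTRL and 40563 CPM in P90 KO. Of the 7 log2 fold changes, 6 were negative and 1 positive in neonatal KO, and 2 were negative and 5 positive in adult KO. Summed markers reached 486 CPM for endothelial cells, 316 CPM for fibroblasts, 672 CPM for smooth muscle and pericytes, 12.9 CPM for macrophages and 2.39 CPM for red blood cells (where Hba-a1 had 0 counts in every library). Y-linked counts above background came from replicate 1 of P14 CTRL and from replicate 3 of P14 KO and of P90 CTRL. The part of these differences in the results was not tested. In bulk samples, fewer cells of a type and less RNA per cell cannot be told apart.

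The 10 genes together took 0.249% ± 0.018 (SD, n = 3) of all counts in P14 CTRL, 0.309% ± 0.013 in P14 KO, 0.440% ± 0.053 in P90 CTRL and 0.541% ± 0.029 in P90 KO. These shares are of raw counts, on another scale than CPM. The TMM factors were 0.9435 to 1.027 in P14 CTRL and 1.124 to 1.187 in P14 KO. In mean CPM, Cryab was 719 in P14 CTRL and 728 in P14 KO, and Hsp90ab1 was 984 and 1016. Per kilobase of exon, Cryab was the most abundant of them in every group, followed by Hsp90ab1, Hspa8 and Hspb1, with no overlap between neighbours in that order. Cryab stood at 607 CPM per kb in P14 CTRL (rank 112 of all genes) and at 1895 CPM per kb in P90 KO (rank 40). Hsp90aa1, Hsph1 and Dnajb1 formed a middle tier between 8.27 and 62.7 CPM per kb (group means), in which the samples of Hsph1 and Dnajb1 overlapped at P14 and those of Hsp90aa1 overlapped with both neighbours at P90. Hspa1a and Hspa1b were the lowest in neonatal cells, at 0.934 and 1.09 CPM per kb in P14 CTRL. Hspa1l was the lowest in P90 KO, at 4.25 CPM per kb, but ranked 6 of the 10 in P14 KO, at 13.8 CPM per kb. The order uses the full exon length and depends on how reads that match several places were counted. If such reads were dropped, the levels of Hspa1a, Hspa1b, Hspa8, Hsp90aa1 and Hspb1, with 51.6% to 74.8% of their stretches shared, are too low.

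**Figure D1:**
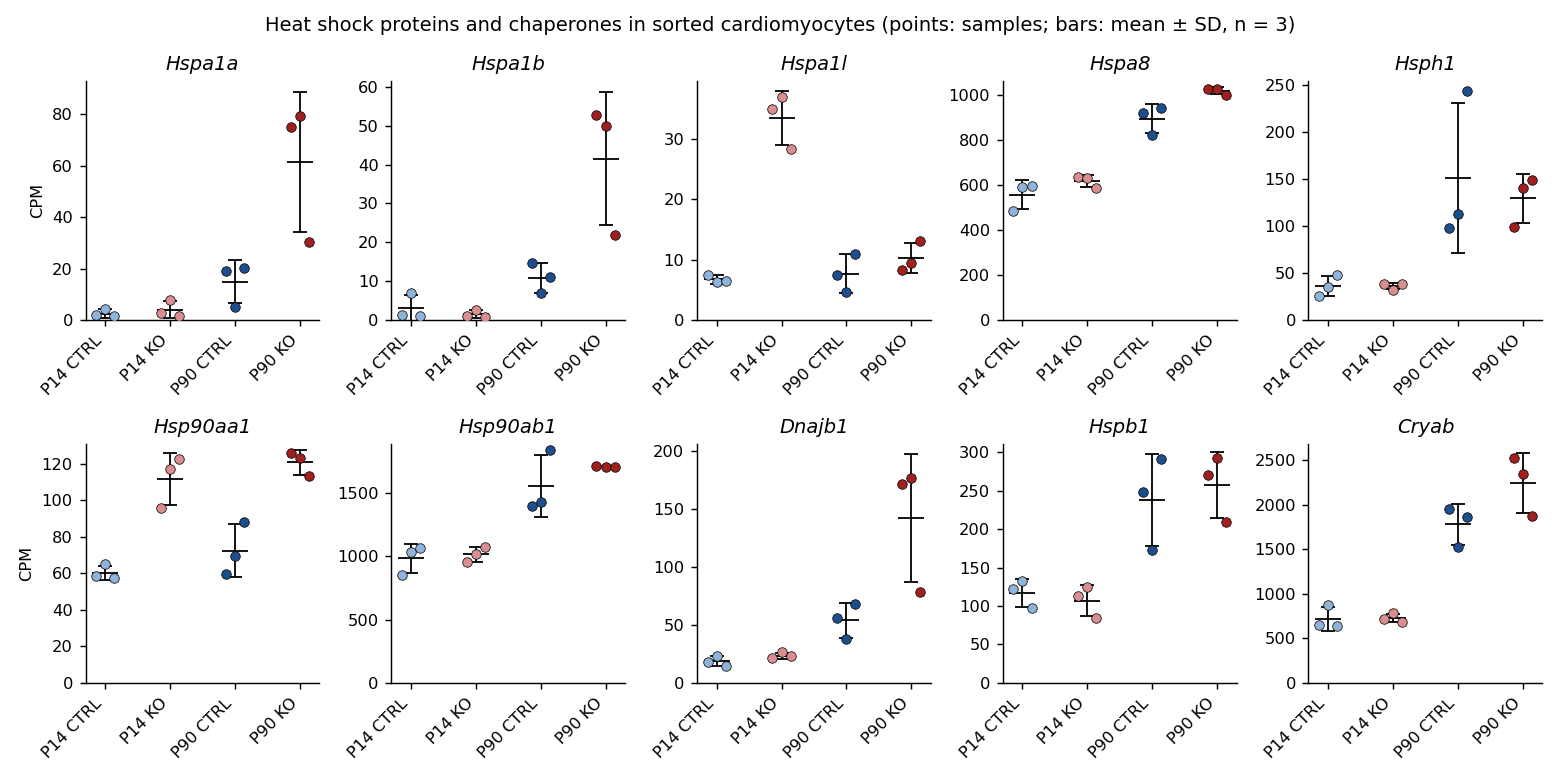
CPM of each of the 10 genes (y axis, linear from 0, its own range in each panel) in P14 CTRL, P14 KO, P90 CTRL and P90 KO. Points are samples in the order of their replicate numbers and bars are the mean ± SD of 3 samples, with the lower bar stopped at 0 for Hspa1b in P14 CTRL. Hspa1l is high only in P14 KO, while Hspa1a, Hspa1b and Dnajb1 are highest in P90 KO, where replicate 3 lies below the other samples.

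The neonatal comparison asks what loss of Srf during the maturation of CMs did to these genes. Hspa1l and Hsp90aa1 rose in neonatal KO, and the other 8 genes did not pass the test. All 10 genes passed the filter on low counts. The 2 of 10 genes called higher stand beside a background of 3.99% of 12546 genes called higher (4.6% were called lower, with 0 of the 10 among them). The samples of KO lay above all those of CTRL for the same 2 genes, against 16.0% of all genes.

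Hspa1l, an HSP70 gene best known for its expression in maturing sperm, was 7.51, 6.25 and 6.44 CPM in the 3 P14 CTRL samples and 35.0, 36.8 and 28.3 CPM in the 3 P14 KO samples. The lowest KO sample was thus well above the highest CTRL sample. Its log2 fold change was 2.30 ± 0.15 (SE), or 4.93-fold (edgeR's quasi-likelihood test with Benjamini-Hochberg adjustment, adjusted p = 0.00152). Under the 12 alternative settings and omissions it lay between 2.24 and 2.42, with adjusted p-values up to 0.0135. At P90 the gene was 7.43, 4.67 and 11 CPM in CTRL and 8.29, 9.41 and 13.1 CPM in KO, so that both adult groups overlapped and lay below the neonatal KO samples.

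The genes around Hspa1l were examined after its rise had been seen. Of 11 other genes within 50000 bp, 8 were tested in neonatal cells. By edgeR's quasi-likelihood test 0 of the 8 were called, 1 had an unadjusted p under 0.05 (D17H6S56E-3, at an adjusted p of 0.129), and DESeq2 also called 0. Hspa1a and Hspa1b were among the 8, and the log2 fold changes of the others lay between -0.18 and 0.47. Srf itself also lies on chromosome 17, at 46546839 to 46556162. KO and CTRL mice differ in their copies of its floxed allele on a mixed background, so DNA inherited with that allele may differ too. The part of such DNA in the rise of Hspa1l was not tested.

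Hsp90aa1, the stress-inducible form of HSP90 in the cytosol, was 58.4, 64.9 and 57.4 CPM in P14 CTRL and 95.7, 117 and 123 CPM in P14 KO, without overlap. Its log2 fold change was 0.89 ± 0.12, or 1.85-fold (adjusted p = 0.00976 by edgeR's quasi-likelihood test). The value lay between 0.83 and 1.00 under the alternatives and stayed under the threshold in each, with the largest adjusted p at 0.0495 when P14 KO replicate 2 was left out. Hsp90ab1, its constitutive counterpart, was 851, 1035 and 1068 CPM in CTRL and 955, 1017 and 1076 CPM in KO, and its log2 fold change was 0.04 ± 0.13 (adjusted p = 0.885).

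The inducible HSP70 genes Hspa1a and Hspa1b were close to the bottom of the range in neonatal cells. Hspa1a was 1.88, 4.50 and 1.46 CPM in CTRL and 2.87, 7.71 and 1.67 CPM in KO. Hspa1b was 1.27, 6.90 and 1.05 CPM in CTRL and 1.06, 2.73 and 0.910 CPM in KO. Replicate 2 was the highest of its group for both genes in both genotypes, and the groups overlapped. Their log2 fold changes were 0.63 ± 0.61 and -0.98 ± 0.76 (adjusted p = 0.577 and 0.475 by edgeR's quasi-likelihood test), and that of their sum was -0.02 ± 0.66 (adjusted p = 0.990). Without P14 CTRL replicate 2, Hspa1b was at 0.43 in place of -0.98, and without P14 KO replicate 2, Hspa1a was at -0.19 in place of 0.63.

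Hspa8, Hsph1, Dnajb1, Hspb1 and Cryab had overlapping groups in neonatal cells. Their log2 fold changes lay between -0.13 (Hspb1) and 0.32 (Dnajb1), with standard errors of 0.12 to 0.21 and adjusted p-values from 0.308 to 0.999 by edgeR's quasi-likelihood test. Dnajb1, the J-domain partner of inducible HSP70, was 18.1, 23.3 and 14.8 CPM in CTRL and 21.2, 26.5 and 22.9 CPM in KO. Cryab, the small heat shock protein alpha-B-crystallin of the sarcomere, was 646, 871 and 641 CPM in CTRL and 716, 783 and 687 CPM in KO.

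The adult comparison asks what loss of Srf did once CMs had matured. Hspa1a, Hspa1b, Dnajb1, Hsp90aa1 and Hspa8 were higher in all 3 P90 KO samples than in any P90 CTRL sample, which is 5 of 10 genes beside 10.3% of all 11808 genes. Over all genes, 0.237% were called higher and 0.152% lower. Since the genes were chosen with this rise known, these counts are a description and nothing is read from them.

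Hspa1a was 19.3, 5.33 and 20.2 CPM in P90 CTRL and 74.8, 79.1 and 30.2 CPM in P90 KO. Hspa1b was 14.6, 6.96 and 11.1 CPM in CTRL and 52.8, 49.8 and 22 CPM in KO. In both genes P90 KO replicate 3 was the lowest KO sample and P90 CTRL replicate 2 the lowest CTRL sample, and the groups did not overlap. The log2 fold changes were 2.01 ± 0.41 for Hspa1a and 1.90 ± 0.32 for Hspa1b (SE). Their sum was 33.9, 12.3 and 31.3 CPM in CTRL and 128, 129 and 52.2 CPM in KO, a log2 fold change of 1.98 ± 0.37, so that its size does not depend on how reads were split between the copies. Of the counts of the pair, Hspa1a took 43.4% to 64.6% in adult CTRL samples and 57.9% to 61.4% in adult KO samples.

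Dnajb1 had its samples in the order of Hspa1a, at 55.6, 38.2 and 68.2 CPM in P90 CTRL and 171, 176 and 78.7 CPM in P90 KO. KO replicate 3 lay just above the highest CTRL sample. The log2 fold change was 1.40 ± 0.28, and 1.68 without P90 KO replicate 3. Hsp90aa1 was 59.6, 69.3 and 88.2 CPM in CTRL and 126, 123 and 113 CPM in KO, with a log2 fold change of 0.75 ± 0.13. Here the 3 KO samples were close to each other, in contrast to those of the inducible HSP70 genes and Dnajb1.

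Hsph1, which releases nucleotide from HSP70, was 98.1, 113 and 243 CPM in P90 CTRL and 99.4, 140 and 149 CPM in P90 KO. CTRL replicate 3 stood above all other samples of the series. The log2 fold change was -0.22 ± 0.29 and turned to 0.30 without that library. Without it, the log2 fold changes were 2.24 for Hspa1a, 1.90 for Hspa1b, 1.59 for Dnajb1 and 0.92 for Hsp90aa1.

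The constitutive and small heat shock genes differed less between the adult groups. Hspa8 was 919, 821 and 941 CPM in CTRL and 1027, 1028 and 1001 CPM in KO, with a log2 fold change of 0.19 ± 0.09. Hsp90ab1 was 1400.3, 1429 and 1841 CPM in CTRL and 1716, 1705 and 1706.5 CPM in KO, with overlapping groups and a log2 fold change of 0.14 ± 0.11. Cryab was 1954, 1521 and 1866 CPM in CTRL and 2520, 2348 and 1870.2 CPM in KO, and its KO replicate 3 was within the CTRL range. Hspb1 overlapped between the groups, at 173 to 291 CPM in CTRL and 209 to 292 CPM in KO.

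Immediate early genes, which can respond at once to cell isolation and other stress, moved with the adult groups. The summed level of 20 immediate early genes was 1171, 1745 and 2039.5 CPM in P90 CTRL and 2251, 3872 and 2586 CPM in P90 KO, without overlap. All 19 of them that were tested had positive log2 fold changes in adult KO, with a median of 0.71 against 0.01 for all genes. By edgeR's quasi-likelihood test 0 of the 19 were called after adjustment, beside 0.237% of all genes called higher, and 16 had an unadjusted p under 0.05. DESeq2 called 5, all higher, among 351 calls over all genes. The share of all genes with an unadjusted p under 0.05 was not computed. Fos was 113, 204 and 195 CPM in CTRL and 259, 538 and 372 CPM in KO. Within P90 KO, the library with the lowest Hspa1a and Hspa1b (replicate 3) was not the lowest in immediate early genes (replicate 1). In neonatal cells the sum was 937 to 1602 CPM in CTRL and 1253 to 1827 CPM in KO, and the groups overlapped. The part of isolation stress in the levels of the inducible heat shock genes was not tested. KO and CTRL also differ in Srf itself, so an effect of its loss on immediate early genes cannot be told apart from stress of isolation.

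**Figure D2:**
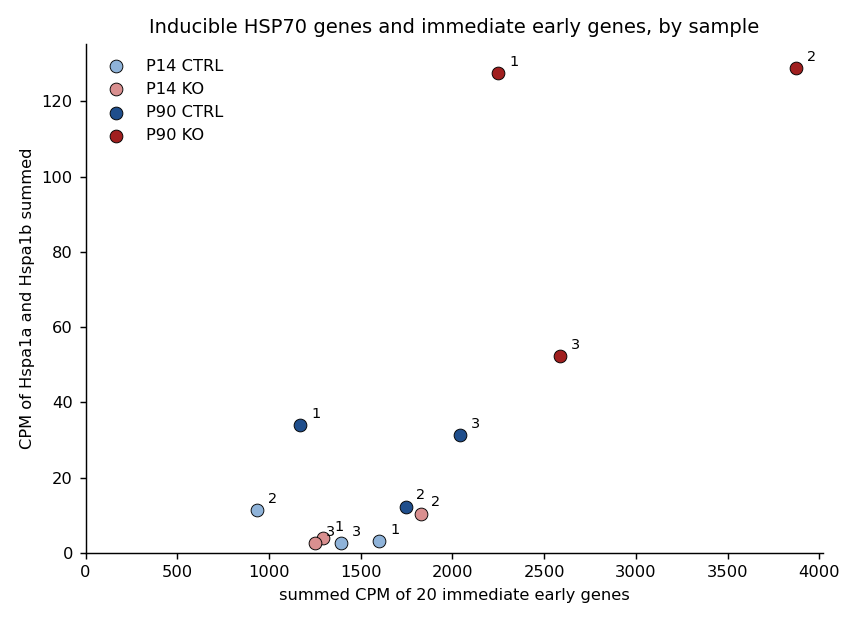
Summed CPM of 20 immediate early genes (x axis) against the CPM of Hspa1a and Hspa1b summed (y axis), 1 point per sample, numbered by replicate and coloured by group. The 3 P90 KO samples are highest on both axes, at 2251 CPM or more and at 52.2 CPM or more, while P14 samples are at 11.4 CPM or less on the y axis across their whole range on the x axis.

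Between P14 and P90, 7 of the 10 genes rose in CTRL cells. These were Hspa1a, Hsph1, Dnajb1, Cryab, Hspb1, Hspa8 and Hsp90ab1, beside a background of 14.5% of 12294 genes called higher (14.9% were called lower, with 0 of the 10). For 8 of the 10 the P90 samples lay above all P14 samples, against 22.1% of all genes. The comparison uses the CTRL samples of both KO comparisons, and age cannot be told apart from the separate handling and tables of the 2 stages. Markers of fibroblasts, endothelial cells and red blood cells were lower in the P90 CTRL libraries. Of 6 tested fibroblast markers 4 were called lower by edgeR's quasi-likelihood test (median log2 fold change -1.74), and their summed level was 296, 106 and 232 CPM in P14 CTRL and 48.7, 67.5 and 53.3 CPM in P90 CTRL, without overlap. Of 7 endothelial markers 4 were called lower (median -0.73), with sums of 235 to 486 CPM at P14 and 217 to 287 CPM at P90. The only red blood cell marker tested was also called lower, whereas 0 of the 7 CM markers were called by edgeR (1 had an unadjusted p under 0.05, and DESeq2 called 0). P14 CTRL replicate 2, the highest neonatal sample of Hspa1b, had the lowest fibroblast and endothelial sums of its group. The part of these cell types in the rise of the 7 genes was not tested.

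Hspa1a had the largest of these log2 fold changes, at 2.53 ± 0.54 (adjusted p = 0.00844 by edgeR's quasi-likelihood test). Hspa1b stood at 1.84 ± 0.62 with an adjusted p of 0.0537, and without P14 CTRL replicate 2, its highest neonatal sample, at 3.22 with an adjusted p of 0.000294 by edgeR's quasi-likelihood test. The sum of both copies rose by 2.20 ± 0.56 (adjusted p = 0.0184 by the same edgeR test). Hsph1 was 26.2, 35.0 and 47.9 CPM at P14, and rose by 2.06 ± 0.35 (adjusted p = 0.00326). Without P90 CTRL replicate 3, Hsph1 was at 1.56 with an adjusted p of 0.00579 by edgeR.

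Dnajb1 rose by 1.53 ± 0.23 on the log2 scale (adjusted p = 0.00185, edgeR's quasi-likelihood test). Cryab rose by 1.31 ± 0.15 and Hspb1 by 1.02 ± 0.20, with adjusted p-values of 0.000565 and 0.00549 by edgeR. The P14 CTRL samples of Hspb1 were 123, 132 and 96.9 CPM and those of P90 CTRL were 248, 173 and 291 CPM, so that its adult spread was wider. The constitutive genes rose less, Hspa8 by 0.68 ± 0.12 and Hsp90ab1 by 0.66 ± 0.14 (adjusted p = 0.00381 and 0.00930 by edgeR). Hsp90aa1 and Hspa1l overlapped between the stages and did not pass the test, at 0.27 ± 0.15 and 0.20 ± 0.29 (adjusted p = 0.216 and 0.627 by edgeR).

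**Figure D3:**
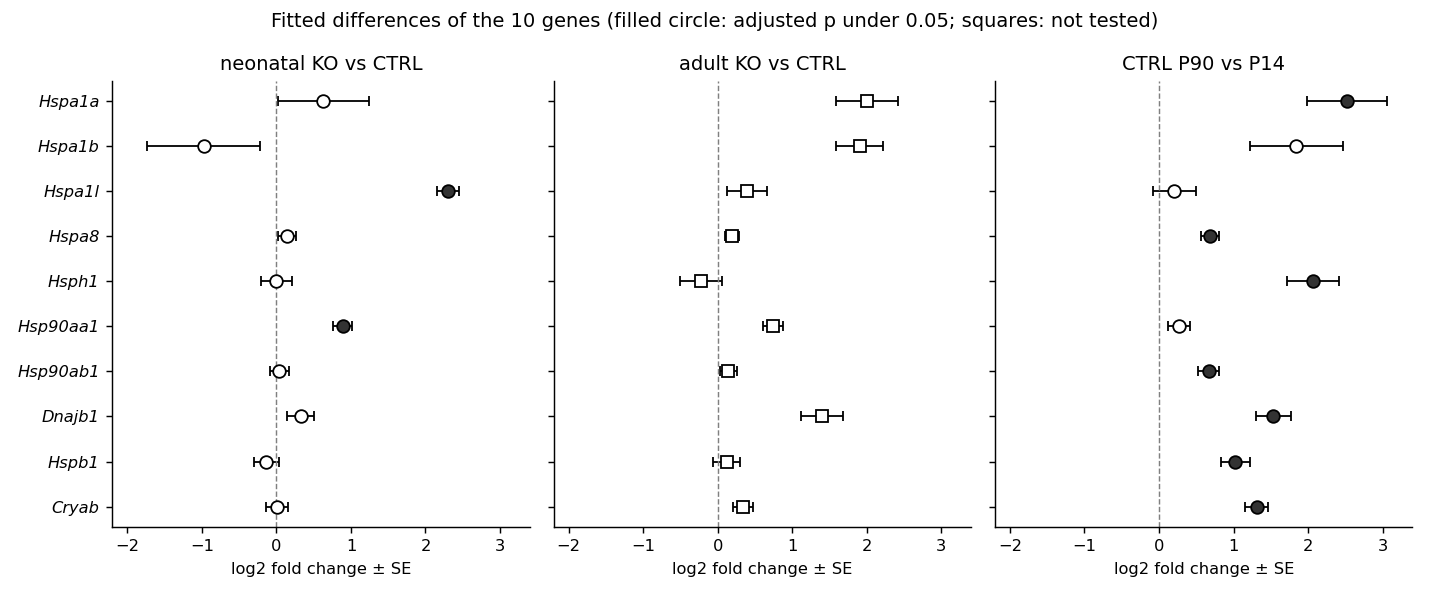
Log2 fold change ± SE (x axis) of the 10 genes (y axis) in neonatal KO against CTRL, adult KO against CTRL, and CTRL at P90 against P14, 3 samples a group. Filled circles passed edgeR's quasi-likelihood test at an adjusted p under 0.05, open circles did not, and squares (adult) are a description without a test. Hspa1l at 2.30 is the highest value in the neonatal panel and lies at 0.39 and 0.20 in the other panels.

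The KO effects of the 2 stages were also compared in a fit of the 12 samples (neonatal less adult), in which 0.818% of 12841 genes were called higher and 0.958% lower. For the 10 genes this difference contains the adult comparison and is a description. It was 1.91 ± 0.35 on the log2 scale for Hspa1l, -2.88 ± 0.87 for Hspa1b, -1.38 ± 0.84 for Hspa1a and -1.06 ± 0.39 for Dnajb1. For Hsp90aa1, which was higher in KO at both stages, it was 0.15 ± 0.19.

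The spread of Hspa1b within groups was shared by other genes. Over the 12 samples, with each value of log2(CPM + 1) taken less the mean of its own group, the 5 genes of 9466 most like Hspa1b were Pomp, a proteasome assembly factor (r = 0.988), Txndc12 (r = 0.986), 2310016M24Rik (r = 0.977), Prdx5, a peroxiredoxin (r = 0.976), and Brp44, a subunit of the mitochondrial pyruvate carrier (r = 0.972). Of the other 9 heat shock genes, Cryab came closest (r = 0.962, rank 9), and Hspa1a (r = 0.859), Dnajb1 (r = 0.785) and Hspb1 (r = 0.706) also varied with it, whereas Hsph1 (r = -0.197) and Hspa1l (r = -0.041) did not. The samples share their libraries and depth, so these values are a description. Pomp, for instance, was 74.1, 101 and 70.1 CPM in P14 CTRL and 121, 115 and 94.7 CPM in P90 KO, high in replicate 2 of the former and low in replicate 3 of the latter, as was Hspa1b.

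**Figure D4:**
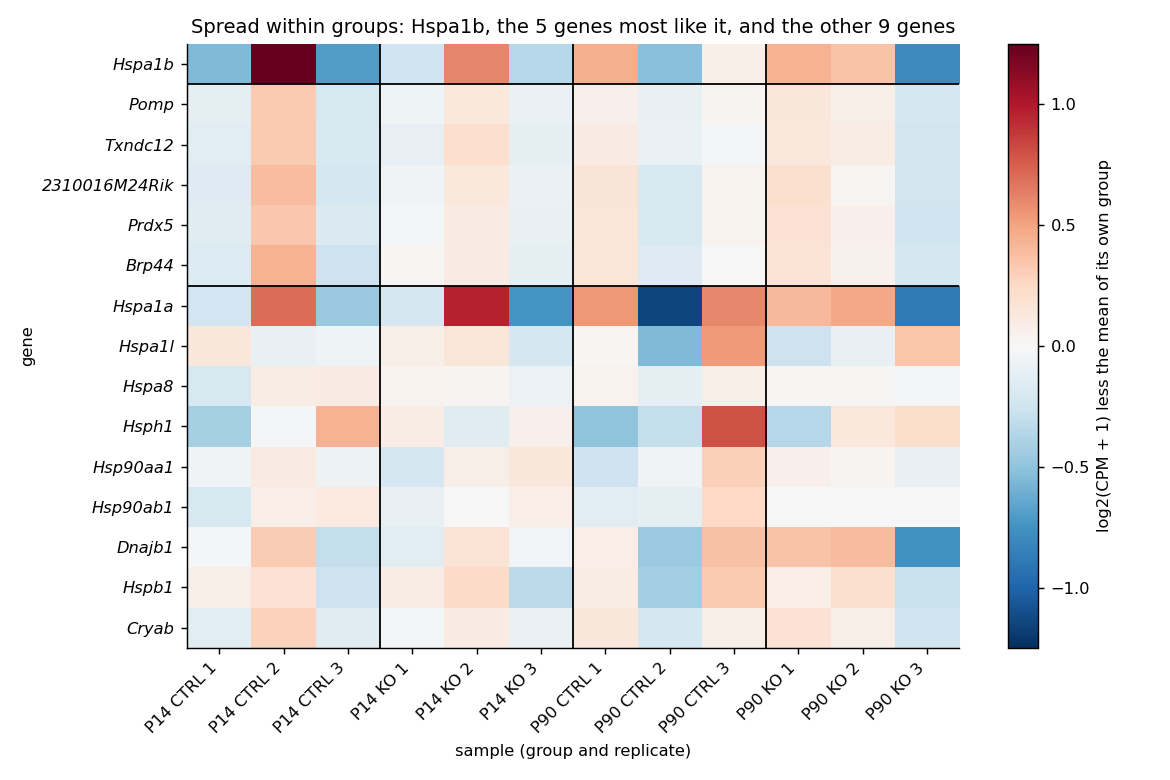
Log2(CPM + 1) less the mean of its own group (colour scale) for Hspa1b, the 5 genes most like it and the other 9 genes (rows), in the 12 samples (columns, by group and replicate). P14 CTRL replicate 2 is high and P90 KO replicate 3 is low for Hspa1b, Hspa1a, Dnajb1, Cryab and the 5 genes, while Hsph1 is highest in P90 CTRL replicate 3.

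The wider chaperone network was described with 8 lists of 104 further genes, of which 98 were tested in each comparison. In neonatal KO 2 of the 98 were called higher and 10 lower, beside 3.99% higher and 4.6% lower over all genes. Their median log2 fold change was -0.06 against 0.00 for all genes. The mitochondrial chaperones fell most as a list: all 12 had negative log2 fold changes and KO samples below all CTRL samples (against 16.7% of all genes), 7 of the 12 were called lower (against 4.6% of all genes), and their median was -0.61. The study reports that genes lower in neonatal KO were mainly those of mitochondria and oxidative phosphorylation. Whether the mitochondrial chaperones fell more than other mitochondrial genes was not tested. Hspe1, the co-chaperonin HSP10, was 47.9, 63.4 and 40.4 CPM in CTRL and 28.2, 31.5 and 29.1 CPM in KO (log2 fold change -0.78 ± 0.17, adjusted p = 0.0282 by edgeR). Grpel1, the nucleotide exchange factor of mitochondrial HSP70, was 213, 243 and 212 CPM in CTRL and 142, 137 and 126 CPM in KO (log2 fold change -0.72 ± 0.11, adjusted p = 0.0119 by edgeR). The number of mitochondrial chaperones called dropped to 1 without P14 KO replicate 1 and to 0 without P14 KO replicate 2 or without replicate 3, while calls over all genes dropped from 1078 to 202, 111 and 181. Grpel1 was the gene that kept its call without replicate 1. Hspe1 also lost its call without P14 CTRL replicate 1, at -0.82.

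Outside mitochondria, few of the listed genes changed in neonatal KO. Hspb7, a small heat shock protein of the cardiac sarcomere, was 1893, 1734 and 1476 CPM in CTRL and 3683, 3976 and 3380 CPM in KO, a rise of 1.11 ± 0.14 on the log2 scale (adjusted p = 0.00699 by edgeR). Hspa2, another HSP70 gene known from testis, rose by 0.66 ± 0.15 (adjusted p = 0.0318 by edgeR). Fkbp4, an HSP90 co-chaperone of steroid receptors, fell by 0.67 ± 0.16, Dnajc21 fell by 0.58 ± 0.14 and Bag1, a nucleotide exchange factor of HSP70, fell by 0.49 ± 0.10 on the log2 scale (adjusted p = 0.0379, 0.0444 and 0.0268 by edgeR). Hspb7 kept its call with each of the 6 neonatal samples left out in turn, while the others did not. The calls of Hspa2, Fkbp4, Dnajc21 and Bag1 were each lost without P14 KO replicate 1, 2 or 3, where the log2 fold changes were 0.59 to 0.74 for Hspa2, -0.75 to -0.57 for Fkbp4, -0.63 to -0.51 for Dnajc21 and -0.52 to -0.44 for Bag1. Of the CTRL samples, omission of replicate 1 ended the calls of Hspa2 (0.69), Dnajc21 (-0.64) and Bag1 (-0.52), omission of replicate 2 that of Dnajc21 (-0.44), and omission of replicate 3 those of Hspa2 (0.65), Fkbp4 (-0.52) and Dnajc21 (-0.65). Of the 4 heat shock factors tested, 0 were called by edgeR's quasi-likelihood test, 0 had an unadjusted p under 0.05, and DESeq2 called 0. Atf3 and Klf6 were the immediate early genes with the largest rises, at 1.17 ± 0.26 and 0.82 ± 0.20 (adjusted p = 0.0302 and 0.0396 by edgeR). Both lost their calls without P14 KO replicate 1, 2 or 3 (1.13 to 1.25 for Atf3 and 0.80 to 0.87 for Klf6), and Klf6 also without P14 CTRL replicate 2 (0.65) or 3 (0.74).

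In adult KO, 0 of the 98 listed genes were called by edgeR's quasi-likelihood test, beside 0.237% called higher and 0.152% lower over all genes. With so few calls over all genes, the 0 says little about chaperones. DESeq2 also called 0 of them, with 351 calls over all genes. By edgeR 16 of the 98 had an unadjusted p under 0.05, without a share over all genes to set beside it. The median log2 fold change of the 98 was 0.03 against 0.01 for all genes. The 5 tested small heat shock genes beside Hspb1 and Cryab were all positive, with a median of 0.30.

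In CTRL cells between P14 and P90, 29 of the 98 were called higher and 5 lower, beside 14.5% higher and 14.9% lower over all genes. The endoplasmic reticulum chaperones took the largest share, with 11 of 18 called higher, 0 lower and a median log2 fold change of 0.60. Sdf2l1 was 4.65, 2.0 and 3.92 CPM at P14 and 15.8, 18.2 and 21.4 CPM at P90, a rise of 2.38 ± 0.30, and Dnajb9, a J-domain partner of BiP, rose by 1.46 ± 0.21 (adjusted p = 0.000737 and 0.00149 by edgeR). Fkbp5, an HSP90 co-chaperone and target of glucocorticoids, was 6.24, 6.70 and 3.98 CPM at P14 and 26.0, 16.3 and 25.9 CPM at P90, a rise of 2.01 ± 0.25 (adjusted p = 0.000771 by edgeR). Bag3, which joins HSP70 to small heat shock proteins, rose by 0.76 ± 0.17, and Hspb8 and Hspb6 rose by 0.79 ± 0.13 and 0.73 ± 0.14 on the log2 scale (adjusted p = 0.00948, 0.00264 and 0.00595 by edgeR). Hsf1, the main heat shock factor, rose by 0.48 ± 0.12 (adjusted p = 0.0152 by edgeR), and lost its call without P90 CTRL replicate 3, at 0.41. The HSP70 relatives were split, with Hspa4l at 0.91 ± 0.15 and Hspa12a at 0.79 ± 0.22 called higher and Hspa12b at -0.73 ± 0.24 and Hspa2 at -0.59 ± 0.20 among the 3 called lower. Hspa4l kept its call with each of the 6 CTRL samples left out. Hspa12a lost it without P14 CTRL replicate 1 or any of the 3 P90 CTRL replicates (0.68 to 0.86), and Hspa12b (-0.86 to -0.55) and Hspa2 (-0.71 to -0.48) lost it without any sample except P14 CTRL replicate 2.

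The cytosolic J-domain genes and the co-chaperones held calls in both directions. Dnaja4 and Dnajb2 rose by 0.79 ± 0.13 and 0.75 ± 0.13 and Dnajc7 fell by 0.75 ± 0.10 on the log2 scale, among 5 cytosolic J-domain genes called higher and 1 lower. Sugt1, an HSP90 co-chaperone, fell by 0.39 ± 0.11, as the 1 gene called lower in a list with 3 called higher. The mitochondrial genes Clpb and Grpel2 rose by 0.64 ± 0.10 and 0.54 ± 0.17, among 4 of 12 called higher, and 0 of 13 tested subunits of TRiC and prefoldin were called by edgeR's quasi-likelihood test or by DESeq2 (0 at an unadjusted p under 0.05). The immediate early genes went both ways, with Egr1 and Junb at 2.86 ± 0.33 and 1.47 ± 0.29 called higher and Nr4a1 and Fosl2 at -1.82 ± 0.35 and -0.96 ± 0.25 called lower. Sugt1 (-0.44 to -0.33) and Fosl2 (-1.03 to -0.74) kept their calls only when P14 CTRL replicate 2 was the sample left out, and Grpel2 (0.44 to 0.51) lost its call without P14 CTRL replicate 1 or 3 or P90 CTRL replicate 2 or 3.

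**Figure D5:**
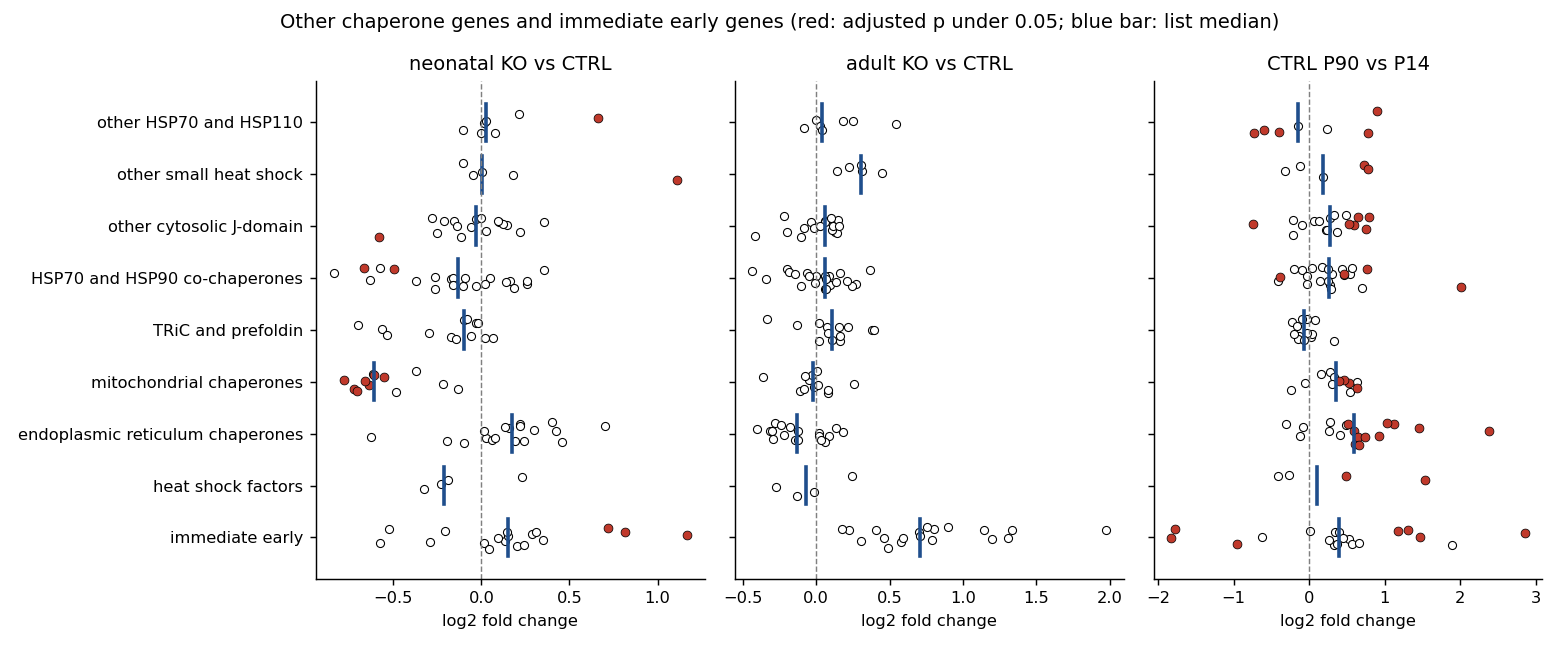
Log2 fold change (x axis, its own range in each panel) of each tested gene of 8 chaperone lists and of the immediate early genes (y axis), in neonatal KO, adult KO and CTRL P90 against P14. Red points passed edgeR's quasi-likelihood test at an adjusted p under 0.05, open points did not, and blue bars are list medians. Mitochondrial chaperones lie left of 0 in neonatal KO (median -0.61), immediate early genes lie right of 0 in adult KO (median 0.71), and endoplasmic reticulum chaperones lie mostly right of 0 from P14 to P90 (median 0.60).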

How the data were processed

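RNA-seq counts of 12 samples of sorted, reporter-positive cardiomyocytes from mice were used, in 4 groups of 3 taken from the sample titles. Per the study's methods and the submitters' processing notes, the authors amplified the cDNA with SMART-Seq v4, made Nextera XT libraries, sequenced them from 1 end, aligned reads to mm10 with STAR 2.5.3a and counted them per gene with featureCounts (Subread 1.5.2). The deposited values are raw gene counts in 1 table per stage. Whether strand was used, and how reads with several matches were treated, is not given in the sources used here. The authors used DESeq2 to compare groups.

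The 10 genes and the gene lists were chosen with earlier results of these data known. Counts were analysed in R 4.3.3. Each comparison was fitted on its own 6 samples (the difference between KO effects on all 12) with filterByExpr, TMM scaling and the quasi-likelihood F-test of edgeR 4.0.16, and p-values were adjusted by Benjamini-Hochberg over all genes tested, at a threshold of 0.05. A standard error is the log2 fold change over the root of its F value. Printed CPM use TMM over the 12 samples, so the ratio of their means can differ from a fitted fold change. The tests were checked on simulated counts. Beside the 10 genes and Srf, genes are named that had the largest called changes of their list (up to 2 in each direction, at a mean of at least 5 CPM), and the 5 genes most like Hspa1b. D17H6S56E-3, Fos, Myh6 and Hba-a1 were named after their values were seen, and the search for motifs and shared stretches was also added then. Alternatives were DESeq2 1.42.0, RLE scaling, no filter, the replicate number as a block, Hspa1a and Hspa1b summed, a fit of all 12 samples, and each sample left out.

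With total counts of 9740389 to 23103460, 3 counts correspond to 0.308 to 0.130 CPM, which covers counting error only, since the cDNA was amplified without molecular identifiers. Sex is not given in the labels. Y-linked counts were 4756 in P14 CTRL replicate 1, 4005 in P14 KO replicate 3 and 3299 in P90 CTRL replicate 3. They were at most 2 in every other sample and 0 in all of P90 KO, so sex was uneven between the groups. P90 CTRL replicate 3 is also the sample with the highest Hsph1. The part of sex in the results was not tested. The study gives 3 hearts for the measurement of Srf in these sorted cells, so the 3 samples of a group are taken as separate hearts. Whether same-numbered samples were handled together is not given in the sources used here.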

Additional observations from a re-analysis of the deposited data

Results flagged for a closer look

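Hspa1l had different KO effects in the 2 stages as a description. Of the 98 listed chaperones tested, 0 were called higher and 3 lower by a test of the difference itself (the neonatal minus the adult effect, edgeR's quasi-likelihood test on 12 samples). Over all 12841 genes, 0.818% were called higher and 0.958% lower. Hspa1l was at 1.91 ± 0.35 (SE, log2), from a rise in neonatal KO (35.0, 36.8 and 28.3 CPM against 7.51, 6.25 and 6.44) and overlapping groups in adult cells. Since it contains the adult comparison, which was known when the genes were chosen, this value is not counted as a test.

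Bag1, the HSP70 exchange factor, was at -0.76 ± 0.13 (adjusted p = 0.0210 by edgeR), with 186, 207 and 182 CPM in P14 CTRL, 136, 145 and 129 CPM in P14 KO, 223, 231 and 244 CPM in P90 CTRL and 298, 282 and 261 CPM in P90 KO. Its KO samples lay below all CTRL samples at P14 and above them at P90, where the gene was not called. Hspd1, the mitochondrial chaperonin HSP60, was at -0.77 ± 0.14 (adjusted p = 0.0211 by edgeR), with 250, 319 and 281 CPM in P14 CTRL and 175, 176 and 171 CPM in P14 KO, and overlapping groups at P90. Grpel1 was at -0.72 ± 0.16 (adjusted p = 0.0400 by edgeR), and was 220, 206 and 216 CPM in P90 CTRL and 247, 210 and 186 CPM in P90 KO. All 3 calls were lost without P90 CTRL replicate 2 or 3 or P90 KO replicate 1 or 2, where Bag1 was at -0.78 to -0.70. The call of Hspd1 was also lost without P14 KO replicate 1 or 2 (-0.78 to -0.73 over its 6 losses), and that of Grpel1 was kept in 3 of 12 omissions, those of P14 CTRL replicate 1, P14 CTRL replicate 3 and P90 KO replicate 3 (-0.76 to -0.59 over its 9 losses).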

How the results depend on the processing

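In the neonatal comparison Hspa1l and Hsp90aa1 passed the test under every alternative run. Calls over all genes were 1078 as reported, 1788 with DESeq2 and 2088 in a fit of all 12 samples, where 20 of the 98 listed chaperones were called in place of 12. Leaving out 1 sample gave 111 to 1004 calls, 1 to 12 of them listed chaperones. Between P14 and P90 in CTRL, 7 or 8 of the 10 genes were called under every alternative. Leaving out 1 sample gave 2067 to 4768 calls against 3607, with 21 to 48 listed chaperones against 34.

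Counts of calls in the adult comparison and in the difference between stages changed with the settings, and the cause was not tested. In adult KO, calls over all genes were 46 as reported, 351 with DESeq2, 701 without a filter, 3 in a fit of all 12 samples, and 6 to 51 with 1 sample left out (the lowest without P90 KO replicate 2). Calls of the 10 genes are not counted here, since the rise of Hspa1b was known beforehand. As a description, their log2 fold changes under the alternatives were 1.65 to 2.32 for Hspa1a and 1.69 to 2.19 for Hspa1b. They were 1.20 to 1.68 for Dnajb1, 0.61 to 0.92 for Hsp90aa1 and 0.13 to 0.23 for Hspa8. Those of Hsph1 (-0.47 to 0.30) and Hspb1 (-0.07 to 0.29) took both signs. Listed chaperones gave 3 calls without a filter against 0. The difference between stages gave 228 calls over all genes, 912 with DESeq2 (14 listed chaperones against 3) and 5 listed chaperones with RLE scaling. It gave 474 calls without a filter (5 listed chaperones), and 4 to 377 with 1 sample left out (the lowest without P90 KO replicate 2, and 0 to 5 listed chaperones). For Hspa1l this difference lay between 1.60 and 2.16 under the alternatives, as a description.

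Samples of the groups share replicate numbers, and with 3 samples a group their deviations cannot decide whether these were paired. The r of same-numbered samples was 0.074 to 0.394 at P14, 0.023 to 0.271 at P90, and -0.115 to -0.035 between CTRL groups. In that order, 4, 3 and 0 of 6 samples correlated best with their own number. With the replicate number as a block, adult KO gave 655 calls (3 listed chaperones) and the difference between stages gave 687 calls (10 listed chaperones). Neonatal KO gave 1529 calls and still 2 of the 10 genes. Of the single named values under all alternatives, 794 kept direction and side of the threshold, 107 lost the threshold, 13 passed it newly, and 19, all uncalled, changed sign. Low counts limit Hspa1a and Hspa1b at P14, where a few CPM decide the fold change.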
